A study of Mus musculus with 6 samples.

Results

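Osteopontin, encoded by Spp1, and CD44, its receptor outside the integrin family and encoded by Cd44, were followed in stromal cells of mouse bone marrow that lack the transcription factor Snai2 (Slug). The members are the rows of the deposited table with the symbols Spp1 and Cd44, 2 of the 1285 genes that the table lists and of 16718 genes tested. The study compared 2 genotypes, Control and Snai2-/- littermates aged 8 weeks, with 3 RNA-seq libraries each, and its title ties Snai2 to repression of osteopontin, so Spp1 is no independent choice. Each library came from 2000 mesenchymal stem and progenitor cells, sorted from marrow as lacking CD45, Ter119 and CD31 (surface proteins of leukocytes, red cell precursors and endothelium) and carrying the Nes-GFP reporter. Both genotypes therefore share the Nes-GFP transgene, a fluorescent reporter under nestin sequences. The sources used here do not give how the Snai2 allele was made, what genotype the controls had beyond their name, or whether a library is 1 animal or a pool. Fewer cells of a type and less RNA per cell cannot be told apart in such bulk samples.

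Osteopontin is a secreted, acidic and heavily phosphorylated glycoprotein of bone matrix that binds mineral and that cells attach to through integrins and CD44. In marrow it lies along the bone surface, where it is known as a restraint on the number of blood stem cells. CD44 is a membrane glycoprotein whose main ligand is hyaluronan; its messenger RNA is spliced with many combinations of variable exons, and its tail is tied to actin by ezrin and its relatives. Snai2 is a zinc-finger repressor that binds DNA at E-boxes, most often of the sequence CAGGTG.

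The table gives 1 mean per genotype, on a normalized scale without a stated unit, together with the p of the authors and its false discovery rate (FDR, the p adjusted over all genes tested). Values of single libraries were not analysed here, so no value has a replicate error, whether the libraries of both genotypes overlap is unknown, and depth per library is unknown. A gene is called listed below when the table holds it, which means an unadjusted p under 0.05. For a gene that is not listed no level is known, and a p of 0.05 or more cannot be told apart from not having been tested. Snai2, the deleted gene, had a mean of 636 in Control against 9.20 without Snai2 (from the authors' deposited table), in the direction of the labels.

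The sequence upstream of the first annotated start of each member is shown because the deleted factor binds DNA. Capitals mark the E-box CAGGTG and the Runx core TGTGGT, each searched on both strands, so that ACCACA is a match to the Runx core on the other strand and CACCTG likewise to the E-box. The sequences are from RefSeq on GRCm38.p6, at chr5:104434861-104435110 on the plus strand for Spp1 and at chr2:102901670-102901915 on the minus strand for Cd44, and both end before the first transcribed base.
Spp1: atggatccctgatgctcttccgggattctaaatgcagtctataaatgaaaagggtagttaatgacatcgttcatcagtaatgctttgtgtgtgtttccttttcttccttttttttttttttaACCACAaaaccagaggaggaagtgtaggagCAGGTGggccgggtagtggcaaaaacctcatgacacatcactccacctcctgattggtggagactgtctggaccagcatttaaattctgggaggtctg
Cd44: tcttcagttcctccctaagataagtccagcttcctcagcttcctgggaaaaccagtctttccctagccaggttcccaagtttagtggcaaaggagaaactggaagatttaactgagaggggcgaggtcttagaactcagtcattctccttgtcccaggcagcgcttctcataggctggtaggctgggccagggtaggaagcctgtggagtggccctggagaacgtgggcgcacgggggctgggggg

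The Spp1 window held 1 CAGGTG, beginning 98 bases before the start, and 1 Runx core, beginning 128 bases before it. The Cd44 window held neither, nor any E-box of the looser form CANNTG, of which CAGGTG is one case. In the full windows of 300 bases, from 250 before to 50 after a start, CAGGTG occurred in 20.2% of all 32851 RefSeq windows, TGTGGT in 16.8% and CANNTG in 72.3%. RefSeq gives Spp1 a second window at a start inside the gene, with 2 CANNTG matches and neither of the other motifs. These are matches of letters in a window and show no binding, and their absence from the Cd44 window says nothing of sites elsewhere.

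Spp1 lies on chromosome 5 from 104435118 to 104441050 on the plus strand (GRCm38, GENCODE M21, ENSMUSG00000029304.14), with 7 transcripts that are all coding and hold 4 to 8 exons. Its mean was 2931 in Control against 7257 without Snai2 (from the authors' deposited table). That is a ratio of 2.48, or 1.31 on the log2 scale, at an unadjusted p of 0.0498 and an FDR of 0.65 (from the authors' deposited table). The Snai2-/- mean was the higher by 4326 units of normalized signal.

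Cd44 lies on chromosome 2 from 102811141 to 102901665 on the minus strand (ENSMUSG00000005087.17), with 9 transcripts, of which 8 are coding and hold 9 to 19 exons. Its mean was 34.8 in Control against 55.9 without Snai2 (from the authors' deposited table). The ratio was 1.61, or 0.68 on the log2 scale, at an unadjusted p of 0.0172 and an FDR of 0.506 (from the authors' deposited table). Values are per gene, so the standard and the variable-exon forms of CD44 are not separated, and the same holds for the spliced forms of osteopontin. GENCODE places 1 small gene within the span of each member, Gm42793 at Spp1 on the same strand and the snRNA gene Gm23731 at Cd44 on the other, and the library kit does not mark strand. Neither member lies on chromosome 16, which holds Snai2.

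**Figure D1:**
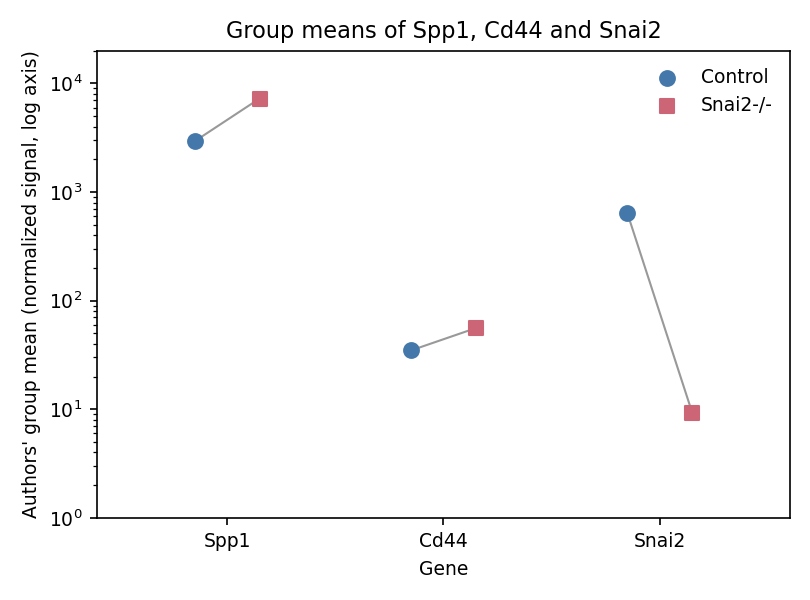
Authors' group means of Spp1, Cd44 and Snai2 (y axis, normalized signal, log axis) in Control (circles) and Snai2-/- cells (squares), 1 mean of 3 libraries per point and no error bars because library values were not analysed. Spp1 goes from 2931 to 7257 and Cd44 from 34.8 to 55.9, while Snai2 goes from 636 to 9.20.

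Both members had the higher mean without Snai2, and neither passed an FDR of 0.05. Of the 16718 genes tested, 7.69% are listed at p below 0.05, 3.77% are listed with the higher mean in Snai2-/- cells, and 0% (0 of 16718) pass an FDR of 0.05. Both members are listed by construction, since their values could be read only from this table, so their count says nothing against that background. Spp1 ranked 1281 of 1285 by p (from the authors' deposited table). Just below it in p stood Fut8 at 0.049799, Spp1 had 0.049811, and just above came Mrpl41 at 0.049817 (from the authors' deposited table). Cd44 ranked 567 of 1285 there.

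Of the members, Spp1 had the larger ratio and the larger p. Spp1 exceeded Cd44 by 0.62 in log2 ratio, a difference that was not tested and has no error. The spread between libraries that lies behind these p-values is not in the table.

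**Figure D2:**
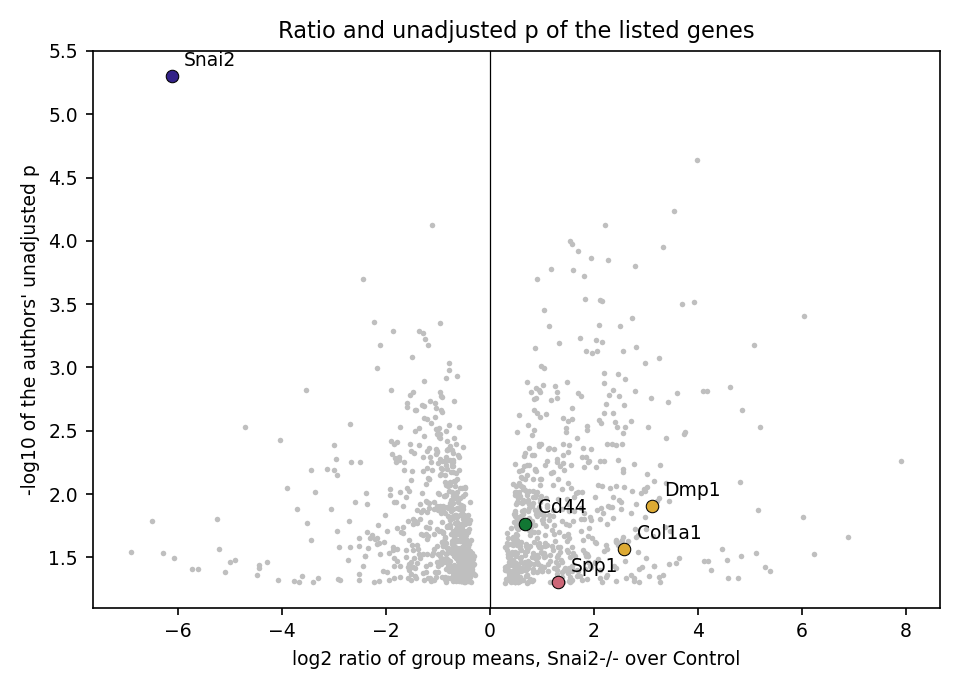
log2 ratio of the group means (x axis, Snai2-/- over Control) against -log10 of the authors' unadjusted p (y axis) for 1278 of the 1285 listed genes, 1 point per gene; the 7 genes with a group at 0.0001 are left out. Spp1 (log2 ratio 1.31) lies at the lower edge of the plot and Cd44 (0.68) above it, while Snai2 (-6.11) stands alone at the top.

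Levels of the 2 messages can be compared only per length, and whether the deposited means are already scaled to length is unknown. As deposited, the Spp1 mean was 84.1 times the Cd44 mean in Control and 129.7 times in Snai2-/- cells. Spp1 has 1.65 kb of merged exons and Cd44 6.78 kb. Single coding transcripts are shorter, at 354 to 1507 bases for Spp1 and 1305 to 5614 for Cd44, and which of them the cells made is unknown. If the means are not yet scaled to length, the Spp1 signal per exon kilobase was 1778 in Control against 4403 without Snai2, and that of Cd44 was 5.14 and 8.26, all derived from the authors' deposited table. On that condition, and with merged exons as the length, the ligand message was 346 times the receptor message in Control and 533 times in Snai2-/- cells. Among the 1247 listed genes with 1 GENCODE match, Spp1 then ranked 1 in both genotypes, while Cd44 ranked 478 in Control against 391 without Snai2. By the means as deposited, over all 1285 genes, Spp1 ranked 1 in Control and 2, behind Col1a1, in Snai2-/- cells, and Cd44 ranked 370 and 272. Spp1 held 4.04% of the summed signal of all listed genes in Control and 7.79% in Snai2-/- cells.

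The scale of the deposited means bears on how large both ratios look. The median log2 ratio of all listed genes was -0.36, and the summed signal of the listed genes differed by 0.36 in log2 the other way. Setting the median to 0 gave log2 ratios of 1.66 for Spp1 and 1.04 for Cd44. Setting equal sums gave 0.95 and 0.32, with Spp1 and Col1a1 together making up 24.1% of the sum in Snai2-/- cells and 7.55% in Control. Both members kept the higher mean in Snai2-/- cells under each of these scalings. Both scalings use only listed genes, which were selected for a low p, so neither is a reference for normalization over all genes tested.

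Osteopontin belongs to the 5 SIBLING genes, the family of acidic bone and tooth matrix phosphoproteins. Spp1 is listed by construction, and of the rest of the family only Dmp1 was listed, also with the higher mean in Snai2-/- cells. Dmp1, made by late osteoblasts and osteocytes and needed for mineralization, had means of 83.1 in Control against 716 without Snai2 (from the authors' deposited table), with the ratio at 8.62 and the FDR at 0.473. Ibsp, Mepe and Dspp, the other members, lie in the same cluster on chromosome 5 and were not listed. Dmp1 ends 221 kb before Spp1 begins and was the 1 listed gene among 25 protein-coding genes within 1 Mb of Spp1. That is 4.0% of these neighbours, beside 7.69% of all genes tested, and how many of the 25 were tested is unknown.

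On the list of 13 osteopontin receptor genes used here, which need not be complete, only Cd44 was listed in the table. It is listed by construction, so it does not count against the background of 7.69%. The 12 integrin subunits on that list, Itgav and Itgb3 of the vitronectin receptor among them, were not listed. Cd44 had 15 protein-coding genes within 1 Mb, of which 3 were listed, all with the higher mean in Snai2-/- cells. Beside these 3 of 15, 7.69% of all genes tested are listed, and 49.1% of all listed genes had the higher mean in Snai2-/- cells. How many of the 15 were tested is unknown, and whether 3 of 15 differs from the background was not tested. Slc1a2, a glutamate transporter gene whose end lies 20.4 kb from that of Cd44, had means of 0.0628 in Control against 1.49 without Snai2 (from the authors' deposited table). Pamr1, 168 kb away, had means of 17.8 and 121 (ratio 6.80) and Prr5l, 928 kb away, means of 8.04 and 14.2 (ratio 1.77) (from the authors' deposited table). None of the 3 passed an FDR of 0.05, the lowest being 0.387 for Pamr1 (from the authors' deposited table).

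Among 14 enzymes that modify osteopontin, 4 were listed (28.6%), 3 with the higher and 1 with the lower mean in Snai2-/- cells. Beside this, 7.69% of all genes tested are listed, and 49.1% of all listed genes had the higher mean in Snai2-/- cells. Fam20c, the Golgi kinase that phosphorylates secreted proteins such as osteopontin, had means of 13.0 in Control against 51.2 without Snai2 (from the authors' deposited table), with the ratio at 3.93 and the FDR at 0.272. Alpl, the alkaline phosphatase of mineralizing cells, had means of 241 and 618 (ratio 2.56), and the gelatinase gene Mmp2 had means of 132 and 276 (ratio 2.09) (from the authors' deposited table). Phex, an endopeptidase of bone cells that degrades osteopontin, went the other way, with means of 223 in Control against 92.2 without Snai2 (from the authors' deposited table), 2.42 times lower at an FDR of 0.539. The tartrate-resistant phosphatase gene Acp5 and the cross-linking enzyme gene Tgm2 were not listed.

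Of 22 transcription factors of the osteopontin gene or the osteoblast lineage, 3 were listed, and 1 of these is Snai2, the deleted gene. With Snai2 that is 13.6%, beside 7.69% of all genes tested. That share counts the deleted gene and is no measure of the other factors, of which only Vdr and Dlx3 were listed. Vdr, the vitamin D receptor, a known activator of osteopontin transcription, had means of 70.3 in Control against 304 without Snai2 (from the authors' deposited table), with the ratio at 4.32 and the FDR at 0.385. Dlx3, a homeodomain factor of osteoblasts, had means of 1.86 and 15.2 (ratio 8.16, FDR 0.447) (from the authors' deposited table). Runx2 and Sp7 were not listed. Of the 12 Snail-family factors, related E-box factors and cadherins 1 was listed (8.33%), again the deleted gene Snai2.

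Of 16 other ligands or partners of CD44, 4 were listed (25.0%, beside 7.69% of all genes tested), all with the higher mean in Snai2-/- cells. Srgn, the core protein of the proteoglycan serglycin, had means of 76.8 in Control against 455 without Snai2 (from the authors' deposited table), with the ratio at 5.92 and the FDR at 0.271. Lama5, a laminin chain, had means of 8.94 and 39.6 (ratio 4.43) and Fn1, fibronectin, means of 11.5 and 47.5 (ratio 4.13) (from the authors' deposited table). Col1a1, the main collagen of bone, had means of 2546 and 15244 (from the authors' deposited table). Of 17 genes of hyaluronan synthesis, breakdown and binding, 1 was listed (5.88%), the scavenger receptor gene Stab1. Its means were 6.61 in Control against 2.73 without Snai2 (from the authors' deposited table). The hyaluronan synthase genes Has1, Has2 and Has3 were not listed.

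Inside the cell, 1 of 22 cytoskeletal and signalling partners was listed (4.55%, beside 7.69% of all genes tested). It was Ezr, which encodes ezrin, the linker from the CD44 tail to actin. Its means were 16.3 in Control against 54.2 without Snai2 (from the authors' deposited table), with the ratio at 3.33 and the FDR at 0.271. The related linkers Rdx and Msn were not listed. Of 13 genes of CD44 shedding, intramembrane cleavage and splicing, 1 was listed (7.69%), Psen2, a presenilin of the gamma-secretase that cuts the CD44 tail. Its means were 23.7 and 37.9 (from the authors' deposited table), which gives a ratio of 1.60.

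Without Spp1, Cd44 and Snai2, the 9 pathway lists held 128 genes, of which 14 (10.9%) were listed against 7.69% of all genes tested. The lists were chosen with earlier results of these data known, so neither this share nor the directions are independent of the data. How many of the 128 were tested is unknown. Of the 14, 12 had the higher and 2 the lower mean in Snai2-/- cells, with a median log2 ratio of 2.01 beside -0.36 over all listed genes. None of the 14 passed an FDR of 0.05, and Col1a1, Dmp1 and Alpl among them are also osteoblast markers.

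**Figure D3:**
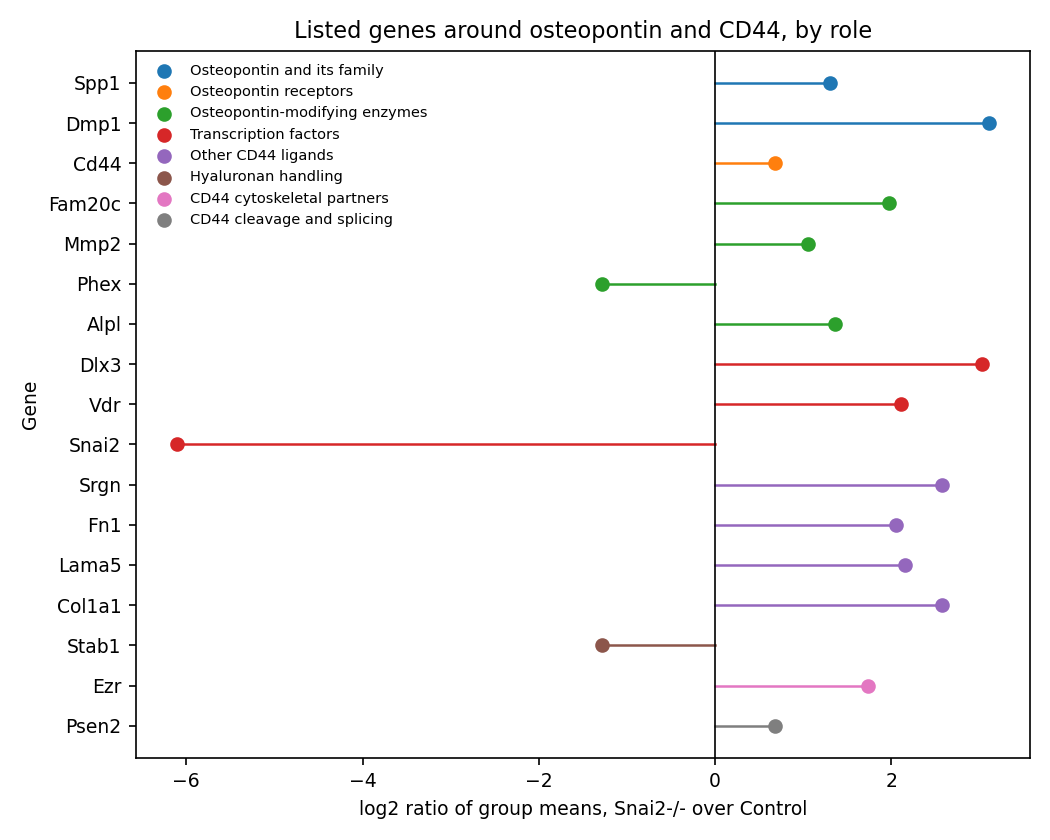
log2 ratio of the authors' group means (x axis, Snai2-/- over Control) for the 17 listed genes of the pathway lists (y axis), coloured by role, 1 value per gene and no error bars. Spp1 (1.31) and Cd44 (0.68) are among the 14 genes to the right of 0; Phex, Stab1 and Snai2 lie to the left.

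The search for the E-box of the Spp1 window was extended to other listed genes of these lists after their values and the Spp1 match were seen, so the counts are a description that supports nothing. Of the 14 pathway genes with the higher mean in Snai2-/- cells, 10 have RefSeq windows, and apart from Spp1 5 of 9 held CAGGTG in at least 1 window, beside 30.5% of the 469 listed genes with the higher mean and 22.6% of all 27025 genes. By window, which allows for genes with several, the 9 held it in 38.5% of 13, beside 25.9% and 20.2%. The 5 were Dmp1, Vdr, Alpl, Lama5 and Fam20c, the last with its match after the start. The site is shown with its flanks for Spp1 (chr5:104435003-104435028, plus strand), Dmp1 (chr5:104202515-104202540, plus), Vdr (chr15:97908308-97908333, minus) and Alpl (chr4:137766645-137766670, minus) on GRCm38.p6, with the E-box in capitals. Each is printed in the direction of its gene. The Dmp1 match, CACCTG, is to the other strand, so its flanks do not line up base by base with those of the others. The sites of Lama5 and Fam20c are not shown.
Spp1: agtgtaggagCAGGTGggccgggtag
Dmp1: gtcccggtgaCACCTGtgatgtcagt
Vdr: ggggcggggcCAGGTGctgagcagtc
Alpl: gggtttatagCAGGTGctcagcaaat

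These sites began 98, 92, 27 and 185 bases before the start of their windows' transcripts, in that order. The Dmp1 window that holds its site also had a Runx core, 164 bases before the start, as the Spp1 window had at 128. Srgn, which held no CAGGTG, had a Runx core as well, 202 bases before a start. Apart from Spp1, the windows of the pathway genes with the higher mean held the Runx core in 15.4% of 13, beside 16.8% of all windows. Stab1, which had the lower mean in Snai2-/- cells, held a CAGGTG as well, 178 bases before its start.

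By a rule of likeness that took the distance between genes in the log2 of both group means (2 points per gene), the listed genes nearest to Spp1 were Col1a1, Gja1, Mmp13, Clu and Agt, at distances of 1.09 to 2.35. Of these, Col1a1, the gap junction gene Gja1 and the collagenase gene Mmp13 had the higher mean in Snai2-/- cells, with ratios of 5.99, 1.61 and 3.58 (from the authors' deposited table). Clu (clusterin) and Agt (angiotensinogen) had the lower mean, with ratios of 0.681 and 0.699 (from the authors' deposited table). Nearest to Cd44 were Klhl7, Usp15, Nop58, Bid and Sec22a, at distances of 0.06 to 0.13 and with ratios from 1.5 to 1.67 (from the authors' deposited table). Those ratios follow from the rule, which picks genes close in both means.

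Markers of other cells that make osteopontin or carry CD44 were read from the same table. These lists too were chosen with earlier results of these data known, and how many of their genes were tested is unknown. Of 16 osteoblast markers 6 were listed (37.5%, beside 7.69% of all genes tested), all with the higher mean in Snai2-/- cells. Their summed mean was 2899 in Control against 16797 without Snai2, of which Col1a1 alone made up 2546 and 15244. Runx2, Sp7, Col1a2, Bglap, Ibsp and Sparc were among the osteoblast markers not listed. Ifitm5, Smpd3 and Phospho1, genes of mineralizing cells, had ratios of 8.17, 6.80 and 8.74 (from the authors' deposited table). None of 10 osteoclast markers was listed, Ctsk and Acp5 included. Of 15 macrophage and monocyte markers 1 was listed (6.67%), Adgre1, with means of 0.056 in Control against 0.695 without Snai2 (from the authors' deposited table). Of 15 neutrophil markers 7 were listed (46.7%), all with the higher mean in Snai2-/- cells. Their summed mean was 186 in Control against 820.1 without Snai2. Of 13 leukocyte markers 1 was listed (7.69%), Cd48, at 1.21 and 3.64 (from the authors' deposited table), and Ptprc, the gene of the CD45 gate, was not. The part of these cells in the Spp1 and Cd44 values was not tested.

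Of 12 erythroid markers 1 was listed (8.33%), Car1, with means of 45.7 and 137 (from the authors' deposited table). Of 12 endothelial markers 2 were listed (16.7%), Flt4 higher and Vwf lower in Snai2-/- cells (from the authors' deposited table). The labelled cell type could not be checked by level, since of 16 markers of mesenchymal stem and progenitor cells only Ebf1 was listed (6.25%). Its means were 362 in Control against 210.3 without Snai2 (from the authors' deposited table), and Nes, Lepr and Cxcl12 were not listed. Of 12 niche factors, by which stroma supports blood stem cells, 1 was listed (8.33%), Angpt1, with means of 171 and 126 (from the authors' deposited table). Beside these shares, 7.69% of all genes tested are listed.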

How the data were processed

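Bulk RNA-seq of sorted marrow stroma was represented by 1 table of the authors' own comparison. Per the labels' protocols, cDNA was made with SMART-Seq v4 and Nextera XT, which amplify by PCR and do not mark strand. Tools named per the submitters' processing notes are HTSeq, Trim Galore and edgeR 3.12.0, with build mm10 and no roles, and no aligner or annotation is named there. The deposited group means and totals are a normalized signal (each of 1285 totals equals 3 times the sum of both means within a relative 1e-06). The deposited ratio is their quotient, the deposited fold change is a signed score made from it, and the deposited p-value and FDR are the authors' own. The columns headed Mutant were taken as Snai2-/- and those headed Wildtype as Control. No test was run here. The number of genes tested, 16718, was recovered from p and FDR, and the recovery was tested on simulated data.

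The members and lists (18 lists, 236 symbols) were chosen with earlier results of these data known. Named were Spp1, Cd44, Snai2, listed members of the lists, the 5 genes nearest to each member (predicted models, Rik clones and ribosomal protein genes left out) and listed genes within 1 Mb. List symbols that are not listed were also looked for under older names, and none was found. Exon lengths came from GENCODE M21 on GRCm38, the assembly mm10 denotes, and promoters from RefSeq on GRCm38.p6, where 941 of the 1285 symbols matched. Python 3.11.15, numpy 2.4.6, pandas 2.3.3 and matplotlib 3.10.9 were used.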

Additional observations from a re-analysis of the deposited data

How the results depend on the processing

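Pseudocounts of 0.5, 1 and 10 on the group means left the log2 ratio of Spp1 at 1.31. Cd44 (0.68) moved to 0.67 with 1 and 0.56 with 10, and Snai2 (-6.11) to -6.04, -5.97 and -5.07. With the median of listed genes at 0 the log2 ratios of Spp1, Cd44 and Snai2 were 1.66, 1.04 and -5.76, and with equal sums 0.95, 0.32 and -6.47. With equal sums over genes other than Spp1 and Col1a1, an alternative chosen after seeing the data, they were 1.23, 0.61 and -6.19. Of the 1285 listed genes, 631 had the higher mean in Snai2-/- cells as deposited, 642 with the median at 0 and 611 with equal sums. An unadjusted p below 0.01 kept 365 of 1285 genes, 9 of the 17 pathway genes and 0 of the 2 members, and an absolute log2 ratio of at least 1 kept 590 genes, Spp1 but not Cd44 among them. At an FDR below 0.05 there were 0 genes (1285 at an unadjusted p below 0.05), and at 0.1 there was 1, Snai2. No paired analysis was possible because the table holds group means, and left-out replicates, other normalizations and count models were not run for that reason. Selection at p below 0.05 favours ratios far from 1, and the scalings above rest on genes so selected. Depth per library is unknown.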

Other observations

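The E-box CAGGTG was counted in the RefSeq windows of all listed genes, a count chosen after seeing the data and given without a test. It occurred in 25.9% of 609 windows of listed genes with the higher mean in Snai2-/- cells and in 15.9% of 616 windows of those with the lower mean, beside 20.2% of all windows. The looser CANNTG occurred in 66.3% and 64.8% of the same windows, and the Runx core TGTGGT in 9.85% and 12.7%. Mean GC content was 60.6% and 59.7% in the windows of both sets and 53.8% in all windows. Genes are not independent and several windows can belong to 1 gene, so these shares carry no error.

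Outside the receptor list, 2 other integrin subunit genes were listed, named after their values were seen. Itga10, a collagen receptor subunit of cartilage, had means of 2.78 in Control against 12.3 without Snai2 (from the authors' deposited table) (FDR 0.649). Itga6, a laminin receptor subunit, had means of 7.44 and 1.17 (from the authors' deposited table) (FDR 0.385).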
